A study of Mus musculus with 72 samples.

Results

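The comparison described here is that of the cerebellum of Gnb5-/- and Gnb5+/+ mice, 12 RNA sequencing libraries (6 per genotype) out of 72 in the series. They were chosen by their sample titles, which give the tissue, the genotype and the mouse number. All animals were males of 18 weeks. The knockout allele lacks exon 3 of Gnb5 in the germline, so every cell of the animal carries it, and it was made on a C57BL/6J background. The Gnb5-/- pups came from heterozygous couples given an enriched breeding food, and litters that held Gnb5-/- pups received wet powdered food around weaning. The entire cerebellum was taken, so each library averages all of its cell types, and fewer cells of a type cannot be told apart from less RNA per cell. The hippocampus and the cerebral cortex of the same 12 mice were used for comparison with it.

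Gnb5 encodes the β5 subunit of heterotrimeric G proteins. Unlike the other β subunits, it pairs with the R7 members of the regulators of G protein signalling (RGS6, RGS7, RGS9 and RGS11), which are stable only in this complex and speed up the switching-off of Gαi and Gαo. The complexes are held at the membrane by R7BP and, for RGS7, by the orphan receptor GPR158. In neurons they shorten the responses to inhibitory receptors coupled to Gi/o, which act on inwardly rectifying potassium channels, adenylyl cyclases and transmitter release. The question put to the cerebellum was which other transcripts differ when Gnb5 is lost.

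Between 37139723 and 47114533 reads per library were counted on genes, and the genotypes did not differ in this total (exact permutation test, two-sided, p = 0.47). The library of Gnb5-/- mouse 12 stood apart. Its share of reads outside genes was 8.02%, against 14% to 16.6% in the other Gnb5-/- libraries and 16.1% to 17% in the Gnb5+/+ libraries. The share was lower in Gnb5-/- by an exact permutation test with all 12 libraries (p = 0.0152) and without mouse 12 (p = 0.0216). Without any 1 of the Gnb5+/+ libraries the p was between 0.0519 and 0.0736. The median correlation of mouse 12 with the other libraries was 0.916, while that of each other library was between 0.988 and 0.989. Results are therefore given with and without mouse 12. A Gnb5+/+ library, that of mouse 15, stood apart at genes of chromosome 9, as described further on, and its Gnb5 level went with its label.

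Gnb5 (chr9:75306288-75345876, plus strand) was low in every Gnb5-/- library. Its normalised count, in CPM (reads scaled by library size with TMM factors), had a lowest value of 19.2, a median of 20.5 and a highest value of 22.7 in Gnb5-/-, and 137, 149 and 161 in Gnb5+/+. The groups did not overlap, and mouse 12, at 19.8, lay among the other knockouts. It fell by 2.84 on the log2 scale (SE 0.07), a 7.18-fold lower level, with an adjusted p of 4.23e-11 in edgeR's quasi-likelihood test. Reads were thus still counted on the gene in every Gnb5-/- library, and the counts are not given per exon. Exon 3 of the annotated transcript Gnb5-202 spans 112 of its 1803 bases (chr9:75314272-75314383, GRCm38, plus strand) and is shown because an exon of that number is the part deleted. Its capitals mark the start codon annotated for transcript Gnb5-206.
Gnb5-202 exon 3: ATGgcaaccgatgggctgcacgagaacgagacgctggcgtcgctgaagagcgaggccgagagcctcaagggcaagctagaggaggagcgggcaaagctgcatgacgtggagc
In Gnb5-201 the third exon is another one, of 137 bases (chr9:75327133-75327269), and which of these numberings the allele follows is not given in the sources used here.

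With all 12 libraries, 14 of 17139 genes tested passed an adjusted p of 0.05 (0.0817%), 5 higher (0.0292%) and 9 lower (0.0525%) in Gnb5-/-. They were Gnb5, 12 other genes of chromosome 9 out of 1008 tested there (1.19%), and 1 gene out of 16130 on all other chromosomes (0.0062%), Guca1b on chromosome 17. An unadjusted p below 0.05 was found for 1003 genes. In all 14 the groups did not overlap, which was true of 189 of the genes tested (1.1%). With each library left out in turn, 9 of the 14 passed in all 12 fits, while Poc1a, Gm10030, Lrrc2, Col6a6 and Gm38150, all on chromosome 9, passed in 2 to 5 of them (highest adjusted p = 0.198, edgeR). Without mouse 12, 62 of 17255 genes passed (0.359%), 25 higher (0.145%) and 37 lower (0.214%), and all 14 were among them. Gnb5 aside, 44 of these lay on chromosome 9 (4.35% of 1012 tested) and 17 on other chromosomes (0.105% of 16242). An unadjusted p below 0.05 was then found for 2014 genes, and the groups did not overlap in 289 (1.67%). DESeq2 called 62 genes with all libraries (0.299%), 43 of them other chromosome 9 genes (3.52%) and 18 elsewhere (0.0922%), and 195 without mouse 12 (1.03%), 84 (7.64%) and 110 (0.617%) of them in these classes.

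Guca1b (chr17:47385393-47392967, plus strand) rose in every Gnb5-/- cerebellum. It encodes GCAP2, a calcium-binding activator of the guanylate cyclases of photoreceptors. The Gnb5+/+ libraries had a lowest value of 1.31 CPM, a median of 1.52 and a highest of 2.12, and the Gnb5-/- libraries 19.9, 21.2 and 42.4. The groups did not overlap, and the highest value was that of mouse 12, since the other 5 knockouts lay between 19.9 and 22.4. On the log2 scale it rose by 3.96 (SE 0.22, adjusted p = 1.31e-06, edgeR) with mouse 12 and by 3.73 (SE 0.10, adjusted p = 1.7e-11), a 13.3-fold higher level, without it. Its neighbour Guca1a (chr17:47394558-47400584), which encodes GCAP1 and lies 1591 bases beyond the end of Guca1b, was too low to pass the filter, with 0.0456 to 0.363 CPM in Gnb5-/- and 0 to 0.0503 CPM in Gnb5+/+. None of the other 92 genes tested within 5 Mb of Guca1b passed the threshold in edgeR with or without mouse 12. Without it, 16 of these genes (17.4%) had an unadjusted p below 0.05 in edgeR, beside 11.7% of all genes tested. Their smallest adjusted p in that fit was 0.224, and their log2 fold changes ran from -0.44 to 1.31.

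**Figure D1:**
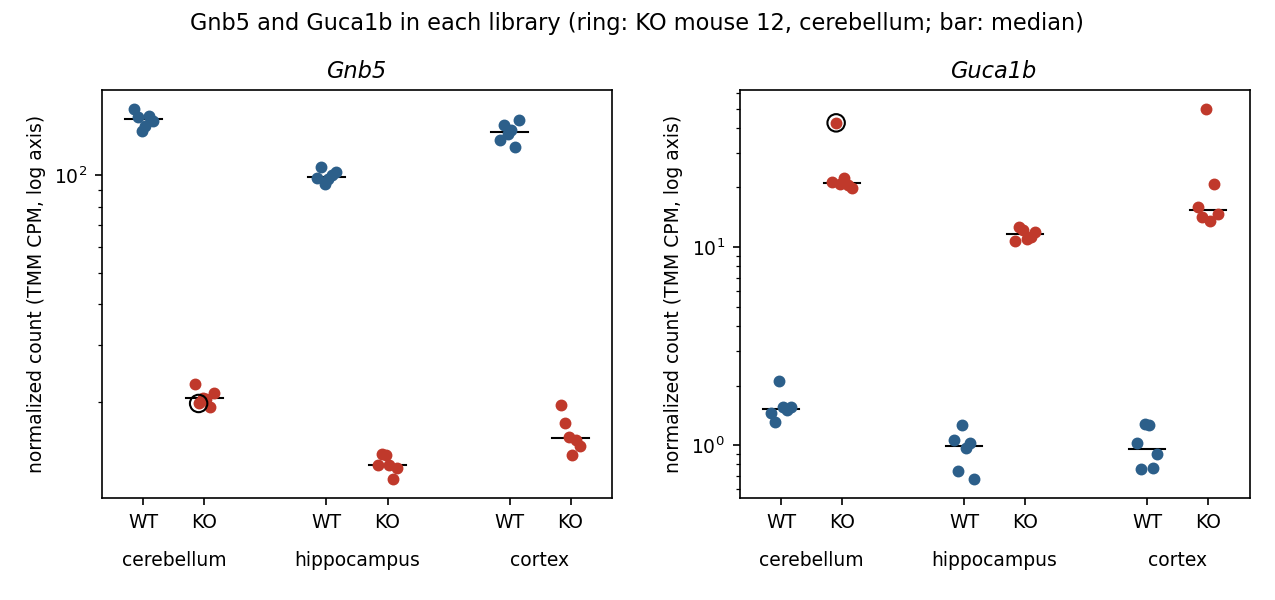
Normalised counts of Gnb5 and Guca1b (TMM CPM, log axis) in each Gnb5+/+ (WT) and Gnb5-/- (KO) library of 3 brain regions, 6 mice per group, with the median as a bar and a ring around the cerebellum library of mouse 12. The genotypes do not overlap in any region, and Guca1b in the ringed library, at 42.4 CPM, lies above the other 5 knockout cerebella.

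Both genes moved the same way in the other brain regions of the same mice. Gnb5 was at 11.5 to 13.8 CPM in Gnb5-/- hippocampus and at 94 to 106 CPM in Gnb5+/+ hippocampus, and at 13.7 to 19.5 and 123 to 148 CPM in the cortex. Guca1b was at 10.8 to 12.6 CPM in Gnb5-/- hippocampus, at 13.5 to 50.1 CPM in Gnb5-/- cortex, and at no more than 1.27 CPM in the Gnb5+/+ libraries of either region. The change of Guca1b in cerebellum minus that in hippocampus was 0.33 on the log2 scale (SE 0.33, adjusted p = 0.884 for the interaction in edgeR), and -0.38 (SE 0.33, adjusted p = 1) against the cortex. A p that misses the threshold does not show equal changes. In the cerebellum and the cortex, the knockout libraries with the highest Guca1b were also those with the lowest shares of reads outside genes. These were mouse 12 in the cerebellum (42.4 CPM, 8.02%) and mice 14 (50.1 CPM, 6.86%) and 3 (20.9 CPM, 8.32%) in the cortex, where the other Gnb5-/- libraries had 13.5 to 16 CPM and shares from 13.4% to 14.9%. In the hippocampus this was not so, since the highest Guca1b, 12.6 CPM in mouse 12, went with a share of 12.2% and the lowest share, 11.7% in mouse 5, with 12 CPM. With this share as a covariate in the cerebellum, the log2 fold change of Guca1b was 3.61 (adjusted p = 1.16e-10, edgeR). The part of the share itself in the level of Guca1b was not tested.

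Chromosome 9, which carries Gnb5, held most of the other genes that passed. Outside Gnb5, 4 of its 12 genes were higher and 8 lower with all libraries, and 16 of 44 were higher and 28 lower without mouse 12. The 44 genes ran from 34.0 Mb before the start of Gnb5 to 36.1 Mb beyond it. Only 1 of 354 genes tested more than 20 Mb before Gnb5 passed, and 6 of 191 in the 20 Mb before it. Beyond Gnb5 the counts were 4 of 50 up to 10 Mb, 8 of 60 up to 20 Mb, 8 of 82 up to 30 Mb, 17 of 167 up to 40 Mb, and 0 of 108 farther on. Most of these genes thus lay at higher coordinates than Gnb5. Of the 44, 35 were protein-coding.

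**Figure D2:**
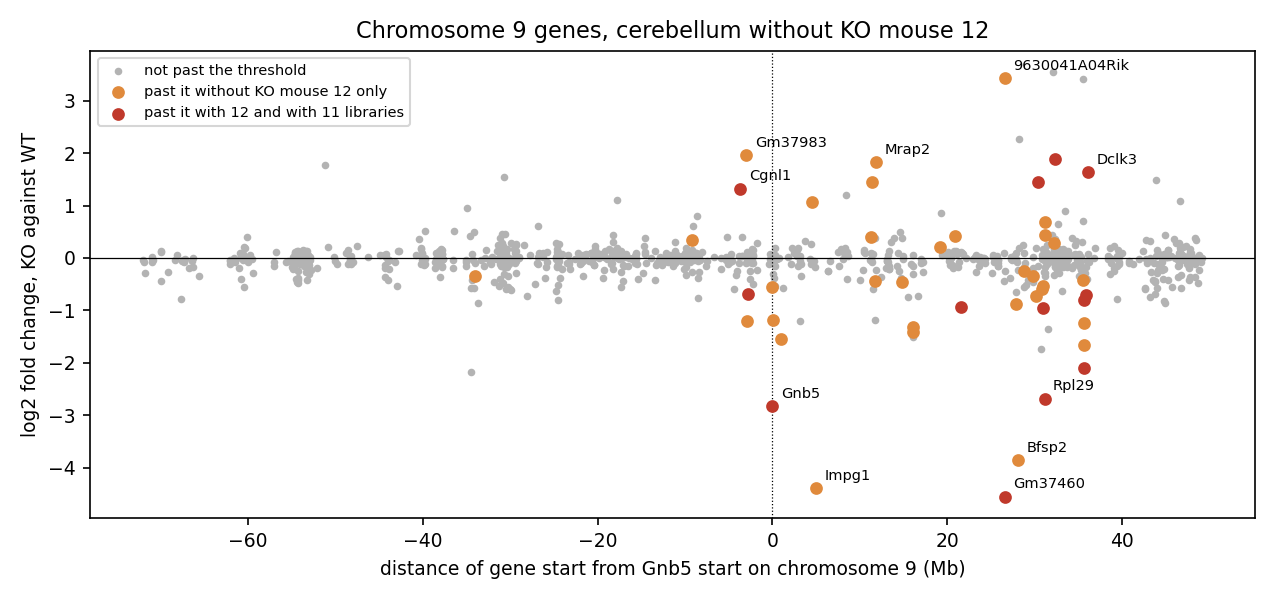
Log2 fold change (Gnb5-/- against Gnb5+/+, without mouse 12, 11 libraries) of the chromosome 9 genes tested, by the distance of their start from that of Gnb5 in Mb. Red points passed the threshold with and without mouse 12, orange points without it only, and grey points in neither, and the coloured points reach 36.1 Mb beyond Gnb5.

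Of the genes that passed with all libraries, Cgnl1 and Tex9 lie before Gnb5. Cgnl1, 3.68 Mb before it, encodes a cytoskeletal protein of cell junctions. It had a lowest, median and highest level of 107, 178 and 204 CPM in Gnb5-/- and of 65.2, 73.3 and 82.1 CPM in Gnb5+/+. Mouse 12 gave the lowest knockout value, still above all Gnb5+/+ values, and Cgnl1 rose by 1.21 (SE 0.14, adjusted p = 0.00223) on the log2 scale with it and by 1.32 (SE 0.07, adjusted p = 2.33e-07) without it. Tex9, 2.86 Mb before Gnb5 and named for its expression in testis, ran from 8.88 to 11.6 CPM in Gnb5-/- and from 14.3 to 18.5 CPM in Gnb5+/+, and fell by 0.72 (SE 0.09, adjusted p = 0.0077). Myo5c, an unconventional myosin that ends just before Gnb5, passed without mouse 12 only, when it fell by 0.55 (SE 0.11, adjusted p = 0.0443). Gm19531 (chr9:75310335-75314871) is an antisense gene within Gnb5, and its span includes exon 3 of Gnb5-202. It had 0.576 to 0.844 CPM in the 5 knockouts other than mouse 12, 1.87 CPM in mouse 12 and 1.26 to 1.8 CPM in Gnb5+/+, so that the groups overlapped through mouse 12 alone. The libraries were stranded, but the strand setting of the counting is not given in the sources used here, so reads of Gnb5 and Gm19531 may not be told apart.

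The other 10 genes that passed with all libraries lay 21.5 to 36.1 Mb beyond Gnb5, and 7 of them fell. Rpl29, which encodes a protein of the large ribosomal subunit, had 0.706, 1.03 and 1.58 CPM as lowest, median and highest values in Gnb5-/- and 4.40, 6.54 and 7.55 CPM in Gnb5+/+, without overlap (log2 fold change -2.56, SE 0.21, adjusted p = 0.000129). Its count is uncertain, since several processed pseudogenes share over 95% of their bases with it. Pxylp1, a phosphatase of glycosaminoglycan synthesis, ran from 25 to 43.8 CPM against 59.9 to 69.7 CPM (log2 fold change -0.87, SE 0.11, adjusted p = 0.00635). Poc1a, a centriole protein, and Lrrc2, a leucine-rich repeat protein, fell by 0.98 (SE 0.15, adjusted p = 0.027) and 0.85 (SE 0.14, adjusted p = 0.0459) on the log2 scale. Gm37460, annotated as a transcript still to be verified by experiment, lies inside 9630041A04Rik on the opposite strand. It was at 0.0225 to 0.109 CPM in Gnb5-/- and at 0.528 to 1.5 CPM in Gnb5+/+. Its log2 fold change of -4.62 (SE 0.41, adjusted p = 0.000224) was the largest on the chromosome among the genes that passed. The processed transcript Gm10030 had 0.0819 to 0.227 CPM against 0.47 to 1.45 CPM and fell by 2.16 (SE 0.33, adjusted p = 0.027).

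Among the genes of this stretch that rose, Dclk3, a doublecortin-like kinase, had a lowest, median and highest level of 7.37, 8.96 and 10.1 CPM in Gnb5-/- and 1.73, 2.43 and 4.45 CPM in Gnb5+/+ (log2 fold change 1.68, SE 0.21, adjusted p = 0.00635). Col6a6, a chain of collagen VI, ran from 2.37 to 3.76 CPM against 0.674 to 1.86 CPM (log2 fold change 1.40, SE 0.22, adjusted p = 0.0366). The non-coding Gm38150 ran from 2.31 to 3.47 CPM against 0.458 to 1.74 CPM (log2 fold change 1.82, SE 0.30, adjusted p = 0.0486). In these 3 genes the highest Gnb5+/+ value was that of mouse 15.

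Of the chromosome 9 genes that passed only without mouse 12, Twf2, which caps actin filaments, had 17.2 to 18.6 CPM in the 5 other knockouts, 37.4 CPM in mouse 12 and 24.2 to 27.7 CPM in Gnb5+/+ (log2 fold change without mouse 12 -0.53, SE 0.05, adjusted p = 8.37e-05). Morf4l1, a chromatin protein, had 79.8 to 91.7 CPM in these knockouts, 148 CPM in mouse 12 and 109 to 122 CPM in Gnb5+/+ (-0.45, SE 0.05, adjusted p = 0.000148). In both genes mouse 12 lay above the Gnb5+/+ range and the other knockouts below it. Bfsp2, a lens filament protein, had 0.0691 to 0.273 CPM in these knockouts, 1.58 CPM in mouse 12 and 1.21 to 3.94 CPM in Gnb5+/+ (-3.85, SE 0.36, adjusted p = 9.44e-05). Ppm1m, a protein phosphatase, and Mrpl3, a mitochondrial ribosomal protein, fell by 0.58 (SE 0.06, adjusted p = 0.000148) and 0.35 (SE 0.04, adjusted p = 0.000543). Me1, the cytosolic malic enzyme that yields NADPH, was higher, with 64.2 to 72.5 CPM in these knockouts, 122 CPM in mouse 12 and 45.2 to 58.4 CPM in Gnb5+/+ (0.40, SE 0.06, adjusted p = 0.00556). Ppib, the cyclophilin of the endoplasmic reticulum, and Pcbp4, an RNA-binding protein, rose by 0.34 (SE 0.05, adjusted p = 0.00639) and 0.44 (SE 0.07, adjusted p = 0.00722).

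Outside chromosome 9, 16 genes besides Guca1b passed without mouse 12, 8 higher and 8 lower. None of them passed with all 12 libraries (smallest adjusted p = 0.125), although all 16 had the same sign there. The 14 of them that are no copies of chromosome 9 genes had log2 fold changes between 0.159 and 0.724 in size. They were chosen after their values were seen, by applying to the 11 libraries the rule set for 12. In 15 of the 17, Guca1b included, the value of mouse 12 lay outside the range of the other knockouts, and in 13 of the 17 it lay farther from Gnb5+/+ than they did. With mouse 15 left out as well, 11 of the 16 passed, and Gpr158 and Pde10a were among those that did not (adjusted p = 0.0706 and 0.0584).

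Among the 8 genes that fell, Adamts2, which trims procollagens, had a lowest, median and highest level of 15.8, 17 and 19.2 CPM in the 5 knockouts and 22, 23.5 and 25.4 CPM in Gnb5+/+, and 11.1 CPM in mouse 12 (log2 fold change without mouse 12 -0.44, SE 0.06, adjusted p = 0.00298). Ltbp2, a microfibril protein, had 70.5 to 97.9 CPM in the 5 knockouts, 36.7 CPM in mouse 12 and 112 to 133 CPM in Gnb5+/+ (-0.49, SE 0.07, adjusted p = 0.00556). Adamtsl3, a secreted relative of the ADAMTS proteases, had 1.69 to 2.37 CPM, 0.726 CPM and 2.92 to 3.5 CPM in the same order (-0.67, SE 0.11, adjusted p = 0.0126). In these 3 genes all knockouts lay below all Gnb5+/+ libraries, and mouse 12 lay lowest.

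Also among the 8, Grin2a, the GluN2A subunit of NMDA receptors, had a lowest, median and highest level of 94.9, 95.7 and 101 CPM in the 5 knockouts and 107, 116 and 123 CPM in Gnb5+/+, and 66.5 CPM in mouse 12 (-0.25, SE 0.04, adjusted p = 0.0101). Grin2a shares 99.9% of 2225 bases with the pseudogene Gm7328 on chromosome 8, so its count is uncertain. Gpr158, the membrane anchor of RGS7 and Gβ5, had 256 to 284 CPM in the 5 knockouts, 152 CPM in mouse 12 and 289 to 349 CPM in Gnb5+/+ (-0.24, SE 0.05, adjusted p = 0.0484). Pde10a, which hydrolyses cAMP and cGMP, had 102 to 154 CPM, 35.5 CPM and 140 to 246 CPM (-0.68, SE 0.13, adjusted p = 0.0384), and its groups overlapped. Necab1, a neuronal calcium-binding protein, had 19.4 to 25.6 CPM, 8.76 CPM and 25.4 to 39.9 CPM (-0.67, SE 0.12, adjusted p = 0.0261), and its groups also overlapped. The remaining gene that fell was the kinase Map3k19 (-0.72, SE 0.12, adjusted p = 0.0149). Over the other settings tried, the highest adjusted p of each of the 16 genes was between 0.607 and 0.722.

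The 8 genes that rose included the mitochondrial carrier Slc25a29 (0.29), Tbata (0.27), a gene expressed in thymus, brain and testis, Trnp1 (0.26), a nuclear protein of neural progenitors, Tmem200b (0.24), a transmembrane protein, and Atp6v1g2 (0.16), a neuronal subunit of the vacuolar ATPase. These are log2 fold changes without mouse 12, with adjusted p from 0.00534 for Tbata to 0.0452 for Atp6v1g2 (edgeR). Tbata had 48.8 to 53.7 CPM in the 5 knockouts and 41.6 to 44.5 CPM in Gnb5+/+, but 36.4 CPM in mouse 12, on the other side of the Gnb5+/+ range. Tmem200b showed the same arrangement, with 22.2 to 24.1 CPM, 18.6 to 20.6 CPM and 15.4 CPM. They also included the processed pseudogenes Gm8210 and Oaz2-ps, described next.

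**Figure D3:**
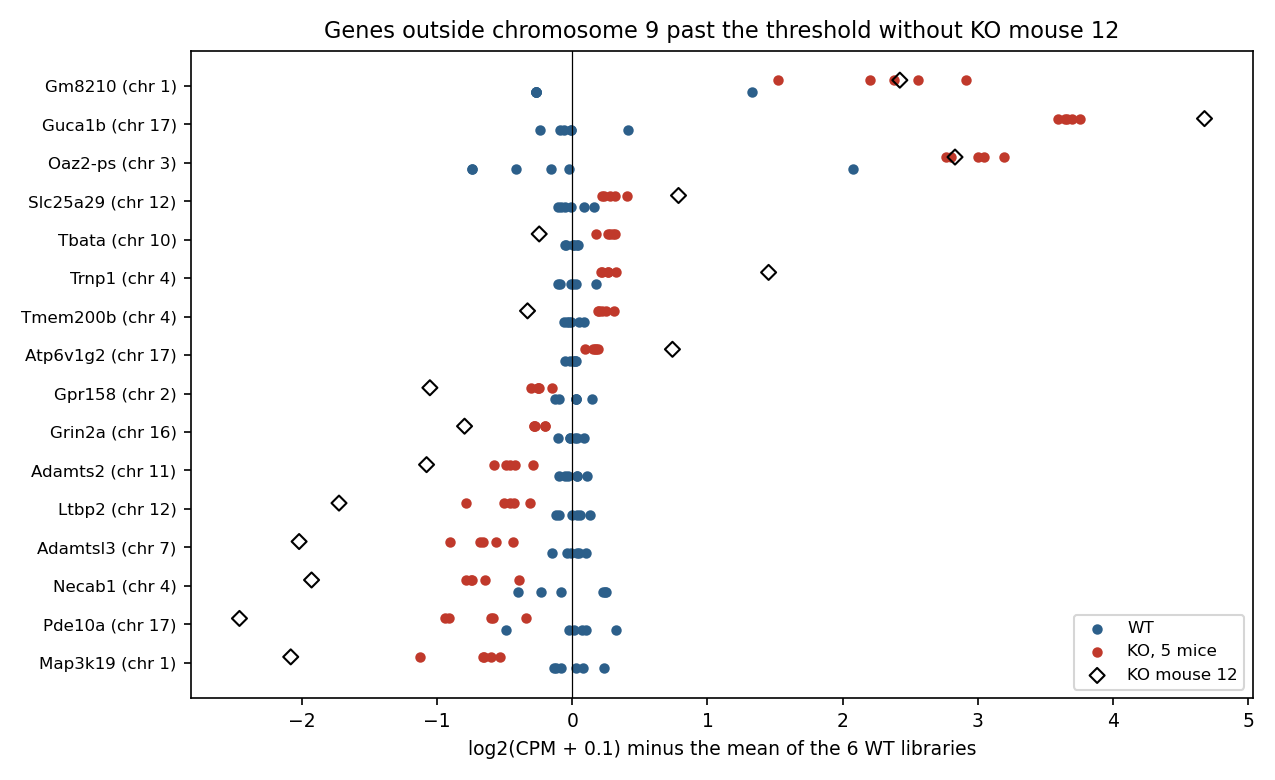
Level of 16 of the 17 genes outside chromosome 9 that passed the threshold without mouse 12, as log2(CPM + 0.1) minus the mean of the 6 Gnb5+/+ (WT) libraries, for each library. Mouse 12, drawn as a diamond, lies on the other side of the Gnb5+/+ mean from the other Gnb5-/- (KO) libraries for Tbata and Tmem200b, and Gm8210 and Oaz2-ps each have 1 Gnb5+/+ library, mouse 15, far above the rest.

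Both pseudogenes are near-identical copies of chromosome 9 genes. Processed pseudogenes are intronless copies of a messenger RNA, and reads assigned to one may come from its parent, or from another copy, wherever few bases differ. Oaz2-ps (chr3:135525964-135526532, minus strand) matched Oaz2 (chr9:65668001-65690300), which encodes an antizyme that inhibits ornithine decarboxylase, in 465 of 471 aligned bases (98.7%). Gm8210 (chr1:43189156-43189638, plus strand) matched Rpl29 in 480 of 483 bases (99.4%). It matched other processed pseudogenes as closely or more closely, among them Gm13841 on chromosome 5 (100% of 483 bases) and Gm6344 on chromosome 13 and Gm14036 on chromosome 2 (99.6% each). Stretches of 80 coding bases are shown because only reads over a difference can be told apart. Each was picked as the gap-free coding stretch of that length with the most differences, so no other such stretch of the pair differs more. The capitals mark the differences, 3 in the first pair and 1 in the second.
Oaz2-ps: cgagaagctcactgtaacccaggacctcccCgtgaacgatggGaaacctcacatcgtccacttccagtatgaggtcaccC
Oaz2: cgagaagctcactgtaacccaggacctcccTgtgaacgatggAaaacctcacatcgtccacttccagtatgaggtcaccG
Gm8210: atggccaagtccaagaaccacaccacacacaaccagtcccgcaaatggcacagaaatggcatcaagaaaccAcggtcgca
Rpl29: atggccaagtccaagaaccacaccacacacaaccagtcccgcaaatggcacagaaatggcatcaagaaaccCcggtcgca
Oaz2-ps had 1.03 to 1.43 CPM in Gnb5-/-, 0.604 CPM in Gnb5+/+ mouse 15 and 0 to 0.0641 CPM in the other 5 Gnb5+/+ libraries (log2 fold change without mouse 12 3.31, SE 0.64, adjusted p = 0.0443). Its parent Oaz2 was at 82.1 CPM in the median Gnb5-/- library of these 5 and at 76 CPM in Gnb5+/+ (0.14, SE 0.05, adjusted p = 0.282). Gm8210 had 0.246 to 0.806 CPM in Gnb5-/-, 0.201 CPM in mouse 15 and no read in the other 5 Gnb5+/+ libraries (adjusted p = 0.0277), while Rpl29 was lower in Gnb5-/-.

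Mouse 15 lay between the genotypes in the same way at 2 further pseudogenes, which were singled out after their values were seen and passed once both mouse 12 and mouse 15 were left out. Gm11868 on chromosome 4, a 98% identical copy of Cyb5r4, was at 13.8 to 17.1 CPM in Gnb5-/-, 5.96 CPM in mouse 15 and 0.0222 to 0.128 CPM in the other Gnb5+/+ libraries. Gm7049 on chromosome 13, a 98.4% identical copy of Me1, was at 0.518 to 0.732 CPM in Gnb5-/-, 0.428 CPM in mouse 15 and 0.0427 to 0.187 CPM in the others. At Guca1b, by contrast, mouse 15 was at 1.46 CPM, within the range of the other Gnb5+/+ libraries.

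The chromosome 9 genes that passed without both libraries numbered 54 besides Gnb5 (5.36% of 1007), of 73 genes in all (0.425%), so mouse 15 had no part in their choice. For each, the level of mouse 15 was placed on a scale of log2(CPM + 0.1) where 0 is the mean of the other 5 Gnb5+/+ libraries and 1 that of the 5 Gnb5-/- libraries without mouse 12. The libraries that set these ends also chose the genes, so a left-out Gnb5+/+ library can lie above 0 without a true shift. At the 47 genes that start beyond Gnb5, its median position was 0.545, with a range from -0.00349 to 1.27, and 43 of them lay above 0.2. At the 7 genes that start before Gnb5 or within it, the median was 0.234, the range -0.20 to 0.37, and 4 lay above 0.2. At the 14 genes of other chromosomes that are no copies of chromosome 9 genes it was 0.236, with a range from -0.47 to 1.25 and 8 above 0.2. Cgnl1 (-0.16), Tex9 (-0.20), Mns1 (0.09) and Gnb5 itself (-0.05) were near the Gnb5+/+ mean. Mouse 15 thus lay above 0.2 at most of the listed genes beyond Gnb5, and near the Gnb5+/+ mean at Gnb5 itself. It also lay above 0.2 at 8 of the 14 genes of other chromosomes. Single genes show the size of the difference. Mrap2, an accessory protein of melanocortin receptors, was at 6.78 to 17.6 CPM in Gnb5-/-, 6.01 CPM in mouse 15 and 1.56 to 1.96 CPM in the other Gnb5+/+ libraries. Impg1, a proteoglycan of the photoreceptor matrix, was at 0 to 0.0757 CPM in Gnb5-/-, 0.0755 CPM in mouse 15 and 0.509 to 0.961 CPM in the others.

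In the other brain regions of mouse 15 most positions were also above 0.2. In its hippocampus the median was 0.51 over the 20 genes beyond Gnb5 whose groups differed there by at least 0.5 on the log2 scale. The range was 0.139 to 0.894, and 18 lay above 0.2. In its cortex the median was 0.388 over 21 such genes, with a range from -0.186 to 0.819 and 14 above 0.2. The cerebellum, hippocampus and cortex come from 1 animal, so these are not independent animals. Without mouse 15 alone, 30 genes passed (0.174% of 17285), of which 24 were other chromosome 9 genes (2.36%) and 5 lay elsewhere (0.0307%).

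**Figure D4:**
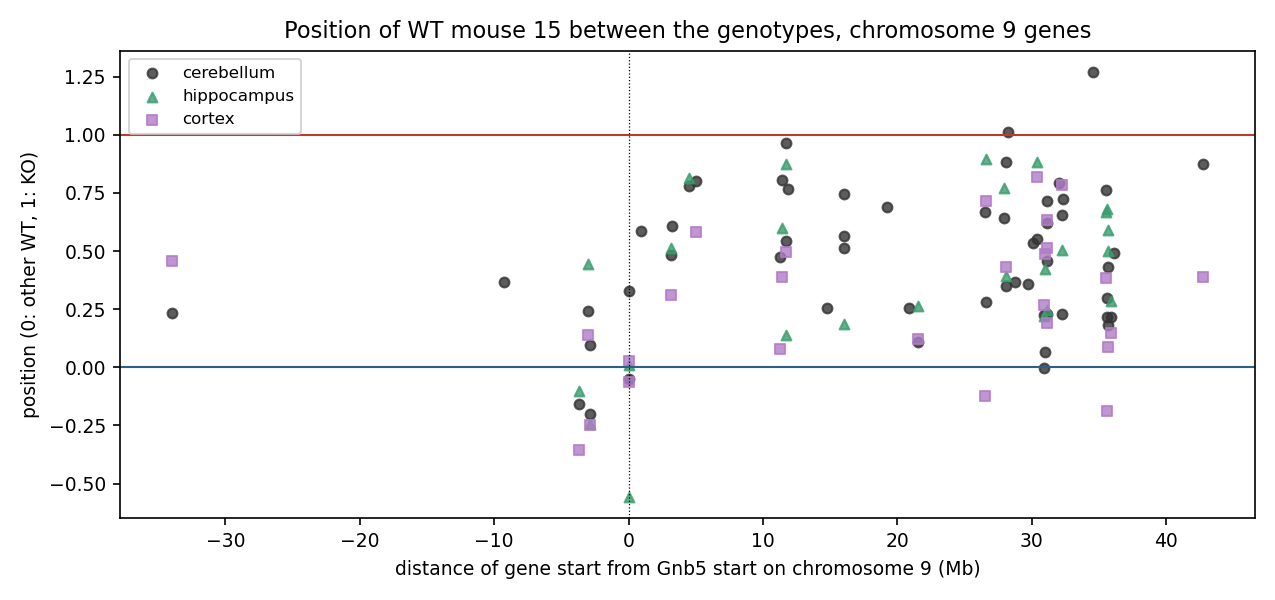
Position of Gnb5+/+ mouse 15 between the other Gnb5+/+ libraries (0, blue line) and the Gnb5-/- libraries (1, red line) at the chromosome 9 genes that passed without mice 12 and 15, by distance from Gnb5 in Mb, in 3 brain regions of that mouse. In the cerebellum the median position is 0.545 at the genes beyond Gnb5 and -0.05 at Gnb5 itself.

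The G protein genes were examined next, in lists chosen with earlier results known. Gnb5 was the only β subunit that passed. Gnb1, the main β subunit of the brain, was at 422 to 459 CPM in Gnb5+/+ and 421 to 469 CPM in Gnb5-/- without mouse 12, with an adjusted p of 0.774 in edgeR. Of the 7 tested members among the R7-RGS proteins and their anchors, Gpr158 alone passed, without mouse 12. In that fit the list's log2 fold changes ran from -0.29 to 0.12, with a median of -0.09 beside 0.00 over all genes. Rgs7 was at 66.2 ± 4.59 CPM (mean ± SD, n = 6) in Gnb5+/+ and 60.9 ± 3.36 CPM (n = 5) in the knockouts other than mouse 12, Rgs6 at 30.8 ± 1.42 and 33.5 ± 1.36 CPM, and Rgs11 at 4.01 ± 0.479 and 3.27 ± 0.258 CPM, with adjusted p of 0.419, 0.316 and 0.316 (edgeR). Transcript of these RGS partners was therefore present in both genotypes, and none of their differences passed the threshold. Of the 7 list members tested, 4 had an unadjusted p below 0.05 without mouse 12 (edgeR), beside 11.7% of all genes tested. None of 12 Gα subunits, 11 Gγ subunits or 12 RGS proteins outside the R7 family passed in edgeR with or without mouse 12. Gnai2 on chromosome 9, the Gαi2 subunit, was at 141 to 160 CPM in Gnb5-/- and 121 to 140 CPM in Gnb5+/+, without overlap, with an adjusted p of 0.096 without mouse 12 in edgeR, 0.00917 in DESeq2, and 0.0204 in edgeR when mouse 15 was left out as well.

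Over all 31 lists, which include the targets and effectors of this signalling, 307 distinct genes were tested and 2 passed with all libraries, Gnb5 and Guca1b, beside 0.0817% of all genes tested. Without mouse 12, 5 passed, these and Gpr158, Grin2a and Pde10a, beside 0.359% of all genes. The lists were chosen with such results known. An unadjusted p below 0.05 was found for 18.9% of the listed genes in that fit and 11.7% of all genes tested. In the 12 inwardly rectifying potassium channels none passed (median log2 fold change 0.09 without mouse 12). Kcnj2, an inward rectifier of the Kir2 family, had the smallest p, at -0.46 on that scale (SE 0.13, adjusted p = 0.209 in edgeR and 0.049 in DESeq2). None of 9 adenylyl cyclases passed (median 0.01). Among 16 phosphodiesterases (median -0.08) Pde10a alone passed, without mouse 12, and was lower in Gnb5-/-. Among 7 NMDA receptor subunits (median -0.02) Grin2a alone passed, also without mouse 12 and lower. None passed among 11 AMPA, kainate and delta subunits, 7 metabotropic glutamate receptors, 13 GABA-A subunits, 6 GABA-B receptors and partners, 15 postsynaptic scaffolds and 12 genes of IP3 signalling in edgeR, whose medians lay between -0.04 and 0.03. Among 27 genes of presynaptic release (median 0.04) none passed in edgeR, while Sncb, a synuclein of nerve terminals, was among those that passed in DESeq2 without mouse 12 (adjusted p = 0.0129). Sncb was at 142 to 175 CPM in the 5 knockouts, 254 CPM in mouse 12 and 119.5 to 141 CPM in Gnb5+/+. None of 14 immediate early genes passed (median -0.20), and none of 10 neuronal calcium sensors (median 0.09) or 8 mitochondrially encoded proteins (median 0.00).

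Some of the genes that the study names for brain were named for regions other than the cerebellum. These are Ntrk3 and Cacna2d4 for the cortex, Hes5 and Sox6 for the hippocampus, and Synpo for a trend in the hippocampus. Their values in the cerebellum, given here, do not test those statements. Ntrk3, the receptor of neurotrophin-3, was at 381 to 504 CPM in Gnb5+/+, 411 to 525 CPM in the 5 knockouts and 168 CPM in mouse 12 (log2 fold change without mouse 12 0.04, SE 0.07, adjusted p = 0.851). The single low library was mouse 12. Synpo, an actin-associated protein of dendritic spines, was at 0.18 on the same scale (SE 0.16, adjusted p = 0.684). The transcription factors Sox6 and Hes5 had -0.16 (SE 0.07, adjusted p = 0.414) and 0.19 (SE 0.26, adjusted p = 0.812), and Cacna2d4, an auxiliary calcium channel subunit known from photoreceptors, 0.16 (SE 0.15, adjusted p = 0.706).

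The summed cell type markers of the 5 other knockouts overlapped those of Gnb5+/+ in every list. No member of 11 marker lists passed in edgeR with or without mouse 12, and DESeq2 without mouse 12 called the interneuron markers Slc6a5 and Lgi2. Purkinje cell markers (16 genes) summed to 12350 to 13530 CPM in Gnb5+/+ and 12140 to 13850 CPM in the 5 knockouts, with 12270 CPM in mouse 12, and granule cell markers (14 genes) to 8219 to 9089, 8146 to 8963 and 7417 CPM. The defining markers of cerebellum were thus high in every library. Interneuron markers (13 genes) summed to 1737 to 1935, 1848 to 2082 and 1766 CPM, and the markers of Bergmann glia and astrocytes (10 genes) to 3967 to 4314, 3810 to 4205 and 3628 CPM. Forebrain neuron markers (8 genes) summed to 115 to 160, 120 to 145 and 57.5 CPM, and brainstem neuron markers (8 genes) to 5.56 to 8.41, 4.59 to 7.59 and 14.3 CPM. Vessel markers (7 genes) gave 314 to 361 CPM in Gnb5+/+, 309 to 329 CPM in the 5 knockouts and 374 CPM in mouse 12.

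Mouse 12 lay above all other libraries in the summed markers of choroid plexus, blood, microglia and oligodendrocytes. The same held for the vessel and brainstem neuron markers given above. Choroid plexus markers (8 genes) summed to 929 CPM in mouse 12, against 23.8 to 33.3 CPM in the other knockouts and 25.1 to 33.9 CPM in Gnb5+/+, and 7 of the 8 were higher there than in any other library. Ttr, the transthyretin of the choroid plexus, gave 871 CPM of that sum and at most 5.9 CPM elsewhere. Blood markers (5 genes, all 5 highest in mouse 12) summed to 194 CPM against 32.1 to 54.7 and 39.9 to 82.1 CPM, microglia markers (9 genes, 5 highest in mouse 12) to 212 CPM against 116 to 152 and 124 to 136 CPM, and oligodendrocyte lineage markers (12 genes, 9 highest in mouse 12) to 5788 CPM against 2857 to 3964 and 3028 to 4076 CPM. In the same library the adenylyl cyclases summed to 1171 CPM, against at least 2882 CPM in all other libraries, and the postsynaptic scaffolds to 1445 CPM against at least 2977 CPM. The part of these differences in the results with mouse 12 was not tested.

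**Figure D5:**
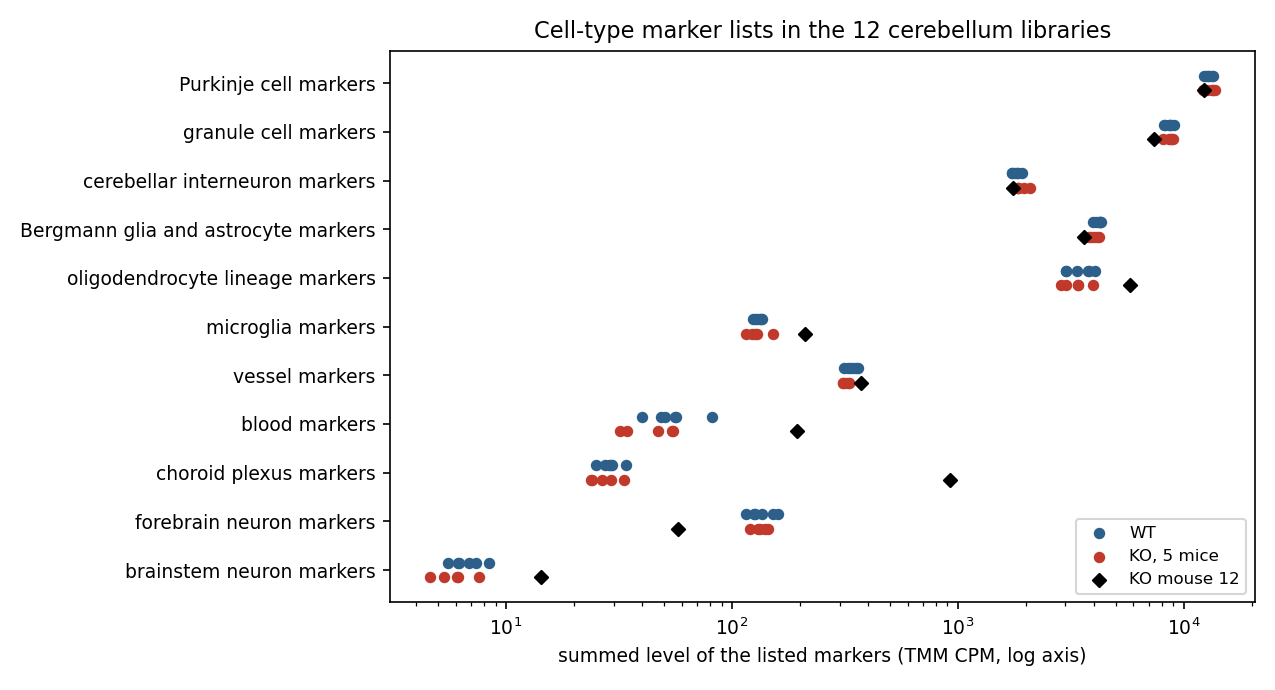
Summed level of the members of 11 marker lists (TMM CPM, log axis) in each of the 12 cerebellum libraries. The 5 Gnb5-/- (KO) libraries overlap the 6 Gnb5+/+ (WT) libraries in every list, and mouse 12, drawn as a black diamond, reaches 929 CPM for the choroid plexus against at most 33.9 CPM elsewhere.

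Whether the effect of the knockout differed between the cerebellum and the other brain regions was tested as an interaction over 36 libraries, with each mouse as a block. Of 19388 genes tested, 5 passed against the hippocampus (0.0258%) and 2 against the cortex (0.0103%), all on chromosome 9, and 721 had an unadjusted p below 0.05 in each. Without mouse 12 of the cerebellum, 4 of 19530 genes passed against the hippocampus (0.0205%) and 3 against the cortex (0.0154%), and 569 and 2459 had an unadjusted p below 0.05. Mns1, a protein of sperm flagella and motile cilia that starts 2.87 Mb before Gnb5, moved in opposite directions. In the cerebellum it was at 0.601 to 0.946 CPM in the 5 knockouts, 1.66 CPM in mouse 12 and 1.59 to 2.46 CPM in Gnb5+/+ (log2 fold change without mouse 12 -1.2, SE 0.17, adjusted p = 0.00556). In the hippocampus it was at 5 to 6.87 CPM in Gnb5-/- and 1.99 to 3.84 CPM in Gnb5+/+ (1.13, SE 0.15, adjusted p = 0.00373), and in the cortex at 4.31 to 5.8 and 1.18 to 1.83 CPM (1.70, SE 0.14, adjusted p = 0.000133). The effect in cerebellum minus that in hippocampus was -2.13 (SE 0.25, adjusted p = 0.000306), and -2.69 (SE 0.26, adjusted p = 5.96e-06) against the cortex. Mns1 overlaps Tex9 on the opposite strand, and the same limit on strand holds for this pair.

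Cgnl1 rose in the cerebellum, while in the hippocampus it was at 11.8 to 15.4 CPM in Gnb5-/- and 16.8 to 29.4 CPM in Gnb5+/+ (log2 fold change -0.68, SE 0.13, adjusted p = 0.0523). The difference of effects was 1.87 (SE 0.31, adjusted p = 0.0208), and 1.72 (SE 0.31, adjusted p = 0.0587) against the cortex, which passed without mouse 12 (1.86, adjusted p = 0.0217). Dclk3 rose in the cerebellum by more than in the hippocampus (difference 1.37, SE 0.22, adjusted p = 0.0208) and the cortex (1.53, SE 0.22, adjusted p = 0.00487). Its level in Gnb5+/+ was 15.3 to 21.7 CPM in hippocampus and 41.2 to 51.7 CPM in cortex, where its log2 fold changes were 0.33 and 0.17. Slc17a5, the lysosomal sialic acid transporter, rose in the hippocampus (0.39, SE 0.05, adjusted p = 0.00287) and had -0.28 (SE 0.10, adjusted p = 0.583) in the cerebellum, a difference of -0.68 (SE 0.11, adjusted p = 0.0208). Nt5e, which makes adenosine outside cells, had a difference of -0.79 (SE 0.14, adjusted p = 0.0363) against the hippocampus, which did not pass without mouse 12 (-0.76, adjusted p = 0.091). The 5 genes of smallest p against the cortex also held Ppm1m and the non-coding Gm14342 of chromosome 2, with differences of 0.64 (SE 0.12) and 2.10 (SE 0.39) and an adjusted p of 0.0587 for both. The Gnb5-/- cortex included mice 14 and 3, with the low shares of reads outside genes given above.

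The other chromosome 9 genes did not pass the interaction test, which does not show equal effects. Of the 62 genes that passed in the cerebellum without mouse 12, 56 were tested in the hippocampus, where 20 of the 29 genes that passed (0.165% of 17588) were among them, and 57 in the cortex, where 7 of the 10 that passed (0.0557% of 17967) were among them. The 7 were Gnb5, Guca1b, Mns1, Rpl29, Poc1a, Ppm1m and Bfsp2. Rpl29, for example, fell by 2.57 in hippocampus (SE 0.13, adjusted p = 7.31e-08) and by 2.71 in cortex (SE 0.16, adjusted p = 4.55e-06) on the log2 scale, and its effect in cerebellum differed from these by -0.03 (SE 0.18) and 0.14 (SE 0.19).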

How the data were processed

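RNA of whole cerebellum was sequenced as stranded total RNA libraries of single-end reads. Per the labels and the study's methods, the authors trimmed the reads with cutadapt 1.8, removed ribosomal and low-complexity reads, aligned with STAR 2.5.3a to GRCm38 and deposited raw counts per Ensembl gene made with HTSeq 0.9.1. Groups followed the sample titles. Rows for reads outside genes or not unique were kept out of library sizes and tests. Reads outside genes are those that the counting assigned to no feature, so they need not be intergenic.

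Counts were filtered (filterByExpr, minimum count 10), scaled with TMM factors and tested with the quasi-likelihood test of edgeR 4.0.16 under R 4.3.3, with Benjamini-Hochberg adjustment and a threshold of 0.05. Standard errors were derived from the fold change and the F statistic. DESeq2 1.42.0 and the settings of the closing section were alternatives. Interactions were fitted over 36 libraries with each mouse as a block. Single library measures were tested with two-sided exact permutation tests, which can give no p below 0.00216 here. Gene positions came from GENCODE M21 (GRCm38), which matched 53620 of 53715 gene identifiers, and near copies from BLAST+ 2.17.0+. The fits were tested on simulated counts. The sources do not say whether any mice shared a litter.

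The genes named were Gnb5, the genes that the study names for brain, among genes past the threshold whose groups did not overlap the 20 of smallest adjusted p outside chromosome 9 and 12 on it, in each list the members that passed or else the one of smallest p, 5 genes per interaction, and genes within 5 Mb of Guca1b that passed. The same rule applied without mouse 12, and all other names, were chosen after values were seen. Members, lists and the handling of mouse 12 were chosen with earlier results of these data known, and settings that left out mice 12 and 15 together, or combined leaving out mouse 12 with another tool or scaling, after seeing the data. Columns of the other organs were not used here. Results for some genes that these rules would name are not reported here, and counts include them.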

Additional observations from a re-analysis of the deposited data

Results flagged for a closer look

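A library was singled out where its value was separated from the rest of its group by more than Dixon's 95% critical value, in 82 groups of 6 libraries over 41 genes, and chance alone singles out about 1 in 20 groups. Of the 22 values so found, 15 were those of Gnb5-/- mouse 12. All of these genes but Guca1b and Ntrk3 passed only without mouse 12, which was a reason for naming them, so this number cannot be set against that rate. The share of reads outside genes of this library, 8.02%, was also apart. In CPM, mouse 12 was the highest knockout for Atp6v1g2 (415), Trnp1 (163), Morf4l1 (148), Mrpl3 (67.4), Guca1b (42.4), Slc25a29 (40.6), Twf2 (37.4), Ppm1m (18.8) and Bfsp2 (1.58). It was the lowest for Ntrk3 (168), Gpr158 (152), Grin2a (66.5), Tbata (36.4), Tmem200b (15.4) and Necab1 (8.76).

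Of the other libraries, Gnb5+/+ mouse 15 was highest for Gm38150 (1.74 CPM), Oaz2-ps (0.604 CPM) and Gm8210 (0.201 CPM), and Gnb5+/+ mouse 17 for Guca1b (2.12 CPM). Gnb5+/+ mouse 8 was highest for Gm10030 (1.45 CPM), Gnb5+/+ mouse 7 lowest for Tex9 (14.3 CPM) and Gnb5-/- mouse 1 highest for Gm37460 (0.109 CPM).

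The effect of the knockout differed between brain regions, by the interaction test, for 5 genes against the hippocampus, all on chromosome 9. The effect in cerebellum minus that in hippocampus, on the log2 scale, was -2.13 for Mns1, 1.87 for Cgnl1, 1.37 for Dclk3, -0.79 for Nt5e and -0.68 for Slc17a5. Against the cortex it was -2.69 for Mns1 and 1.53 for Dclk3, and without mouse 12 also 1.86 for Cgnl1.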

How the results depend on the processing

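Gnb5 and Guca1b kept their direction and their call under every setting tried, with log2 fold changes from -2.87 to -2.81 and from 3.61 to 4.06. The count of 14 genes, of which 12 were other chromosome 9 genes and 1 lay elsewhere, was 14 with RLE factors, 17 without a filter (2 elsewhere), 11 with at least 10 counts in every library and 13 with robust estimation. It became 62 (43 and 18) with DESeq2, 39 (34 and 4) with the intergenic share (reads outside genes) as a covariate and 58 (42 and 15) with 1 surrogate variable. With each library left out in turn it ranged from 9 to 62 (7 to 44 and 1 to 17), with 62 without mouse 12, 30 without mouse 15 and 9 without Gnb5-/- mouse 3 or 5 or Gnb5+/+ mouse 16 or 7. Of the settings added after seeing the data, DESeq2 without mouse 12 gave 195 (84 and 110), edgeR without mice 12 and 15 gave 73 (54 and 18), and RLE factors without mouse 12 gave 62 (45 and 16). In simulated counts for this comparison, 17139 genes with 200 changed, edgeR made 3 calls among unchanged genes and DESeq2 made 36. Of the 200, edgeR found 115 and DESeq2 found 141. Of 67 genes changed by 0.5 on the log2 scale, edgeR found 15 and DESeq2 found 27. These counts were drawn with dispersions that edgeR estimated, and no simulated library stood apart as mouse 12 does. They therefore cannot rank the tools on these data.

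With the replicate number as a block, the count was 5 (3 and 1). The labels do not say whether libraries of the same number belong together. Same-numbered deviations from the group means correlated between -0.242 and 0.0636, and no replicate number correlated best with its own. These correlations cannot decide the matter, since mouse 12 weighs on the knockout mean.

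The interaction against the hippocampus gave 5 genes, 4 without mouse 12 and 2 with the libraries of those regions only. Against the cortex it gave 2 genes, 3 without mouse 12, 4 without the mouse block and 1 with those regions only. The share of reads outside genes had p = 0.0152 in the exact permutation test, and 0.00216 to 0.0736 with a library left out.

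Of 2075 values for 91 named genes under other settings, 1721 kept their direction and side of the threshold, 54 lost and 277 gained a call, and 23 changed sign, all without a call. With the intergenic share as a covariate these were Gng13 (-0.047), Hbb-bs (-0.48), Ntrk3 (0.23), Pvalb (-0.13), Rgs10 (-0.10), Trem2 (-0.079) and Ttr (-1.38), and with 1 surrogate variable Hbb-bs (-0.30), Ntrk3 (0.066) and Ttr (-0.38). In DESeq2 without mouse 12 they were Hbb-bs (-0.26), Ntrk3 (0.041) and Ttr (-0.20), with RLE factors without it Hbb-bs (-0.26), Ntrk3 (0.040) and Ttr (-0.20), and without mice 12 and 15 Hbb-bs (-0.27) and Ttr (-0.35). With each library left out in turn, Hbb-bs ranged from -0.26 to 0.49, Ntrk3 from -0.20 to 0.043 and Ttr from -0.19 to 5.90, with the changed sign without mouse 12, and Synpo from -0.026 (without Gnb5-/- mouse 1) to 0.18, with a changed sign also without Gnb5+/+ mouse 7 (-0.0052). The cause of these changes was not tested.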

Other observations

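Further chromosome 9 genes that passed without mouse 12 belong to other functions. Nprl2, a subunit of the GATOR1 complex that restrains mTORC1, was at 35.7 to 39.9 CPM in the 5 other knockouts, 60.1 CPM in mouse 12 and 28.7 to 31.7 CPM in Gnb5+/+ (log2 fold change without mouse 12 0.28, adjusted p = 0.0121). Tfdp2, the dimer partner of E2F factors, was at 61.5 to 75.1 CPM in these knockouts and 46.9 to 57.9 CPM in Gnb5+/+ (0.41, adjusted p = 0.0101), while mouse 12 was at 27 CPM, below both. Trf, transferrin, was at 7.12 to 11.1 CPM, 35.3 CPM in mouse 12 and 10.6 to 17.8 CPM in Gnb5+/+ (-0.89, adjusted p = 0.0104), and Hcrtr2, the orexin receptor 2, at 0.218 to 0.473, 0.544 and 0.528 to 1.17 CPM (-1.54, adjusted p = 0.0156).

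Some neuronal genes were high in mouse 12 although the sum of the Purkinje cell markers was not. Of these 16 markers, 7 were higher in mouse 12 than in any other library. Pvalb, the calcium buffer of Purkinje cells and interneurons, was at 1706 CPM in mouse 12 and at 352 to 442 CPM in the other 11 libraries. Gng13, a Gγ subunit, was at 315 CPM there and 90.1 to 125 CPM elsewhere. Pvalb and Gng13 were picked out after their values were seen.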
